A study of Homo sapiens with 6 samples.

Results

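miR-489-3p, miR-653-5p and miR-653-3p are microRNAs (miRNAs) cut from a pair of hairpins in an intron of CALCR, the calcitonin receptor gene on chromosome 7. They were chosen by name, as 3 of 2656 mature miRNAs listed in small RNA sequencing of KPL4 cells, with the fold changes of the comparison below already known; their own values are therefore given as a description, with no p-value, and their calls are read as no evidence. All 3 were abundant enough to enter the fit, as were 783 miRNAs in all. KPL4 is an established human breast adenocarcinoma line with high HER2 (ERBB2). One group was 3 libraries of cells that lack estrogen receptor β (ERβ knockout; the receptor is encoded by ESR2), called S1, S2 and 3 here. The other was 3 libraries of knockout cells that carry exogenous ERβ, called 1, 2 and 3. Both groups thus share the knockout, and no treatment is listed for either. The labels do not give the expression construct, or whether a group is 1 clone. Knockout cells with a control construct were not analysed here, so ERβ itself and the handling that introduced it cannot be told apart. The labels also do not say whether replicates came from different cultures, and p-values then cover only the variation among these 6 libraries. ESR2 messenger RNA was not measured, so the group labels were not checked by the receptor's own level.

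A miRNA is cut from the stem of a hairpin and guides a silencing complex to messenger RNAs, mainly through its seed, the bases just after its first. miRNAs in an intron on the strand of their host gene are often made from the host's own transcript. In mouse muscle stem cells miR-489 keeps the cells quiescent by repressing Dek. In HER2-positive breast cancer cells it has been described as a repressor of HER2 and of PTPN11 (SHP2), a phosphatase of the same signalling route. Calcitonin receptor, the product of the host gene, is a G protein-coupled receptor best known in bone and brain.

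The mature sequences (RefSeq, GRCh38.p14) are shown first because the seeds, in capitals (bases 2 to 8), show what each miRNA can pair with:
miR-489-3p: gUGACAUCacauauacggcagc
miR-653-5p: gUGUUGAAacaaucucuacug
miR-653-3p: uUCACUGGaguuuguuucaaua
The 3 seeds differ from each other, and no other mature miRNA in the RefSeq table shares any of them. With the shorter seed of bases 2 to 7, miR-489-3p and miR-653-5p had no relatives either, while miR-653-3p shared its 6 bases with 3 miRNAs. Of these miR-181b-2-3p and miR-181b-3p were tested and did not pass (log2 fold change 0.19 and -0.09). Counts of all 3 members were whole numbers in every library, while 6.33 to 7.27% of the listed values per library were not.

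The hairpins are shown with the mature arms in capitals, since the arms differ in which strand accumulates:
MIR489: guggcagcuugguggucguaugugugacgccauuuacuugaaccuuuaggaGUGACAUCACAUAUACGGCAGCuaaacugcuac
MIR653: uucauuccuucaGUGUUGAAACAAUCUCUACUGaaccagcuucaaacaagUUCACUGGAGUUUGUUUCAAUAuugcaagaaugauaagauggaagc
MIR489 lies at chr7:93483936-93484019 and MIR653 at chr7:93482760-93482855, both on the minus strand of GRCh38, the strand of CALCR (chr7:93424487-93574730). They are 1080 bases apart, and GENCODE release 29 places them in the same 7423-base intron, with no exon over either, in all of the CALCR transcripts it lists. MIR489 comes first in the direction of transcription. Folded alone with RNAfold, the MIR489 hairpin had a predicted minimum free energy of -38.2 kcal/mol and the MIR653 hairpin one of -32.8 kcal/mol.

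**Figure D1:**
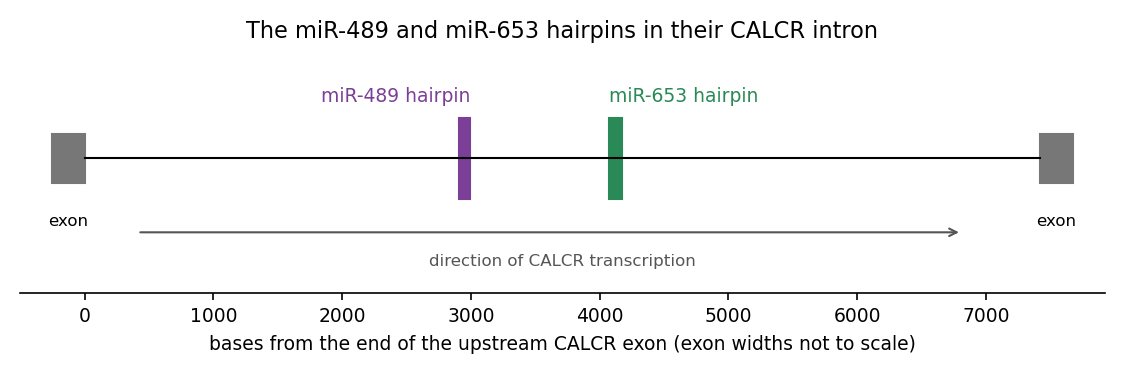
Positions of the miR-489 hairpin and the miR-653 hairpin in their CALCR intron; the horizontal axis counts bases from the end of the upstream exon and the arrow gives the direction of transcription. The hairpins start 2911 and 4075 bases into the 7423-base intron.

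In ERβ knockout cells all 3 miRNAs stood at about 2 times their level in the cells with exogenous ERβ, and the 3 differences were close to each other. CPM are counts scaled to a common library size with TMM factors, which adjust for differences in composition, and fold changes are knockout over knockout with exogenous ERβ. In bulk RNA fewer cells of a kind and less RNA per cell cannot be told apart. miR-489-3p had 5.82, 7.02 and 6.41 CPM in knockout libraries S1, S2 and 3, against 3.15, 3.28 and 3.52 CPM in ERβ libraries 1, 2 and 3. Every knockout library lay above every ERβ library. The log2 fold change was 0.95 ± 0.16 (fitted value ± SE, n = 3 per group). These values rest on 64, 85 and 63 counts in knockout libraries and 35, 49 and 52 in ERβ libraries.

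miR-653-5p had 8.36, 10.5 and 12.3 CPM in knockout libraries S1, S2 and 3, against 4.78, 5.35 and 5.27 CPM in ERβ libraries 1, 2 and 3. The groups did not overlap, and the knockout libraries were spread more widely than the ERβ libraries. The log2 fold change was 1.01 ± 0.17 (SE, n = 3 per group). miR-653-3p, the other arm of the same hairpin, had 10.4, 9.17 and 9.77 CPM in knockout libraries S1, S2 and 3, against 5.14, 4.68 and 4.87 CPM in ERβ libraries 1, 2 and 3. Both groups were tight and did not overlap. The log2 fold change was 1.00 ± 0.14 (SE, n = 3 per group).

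**Figure D2:**
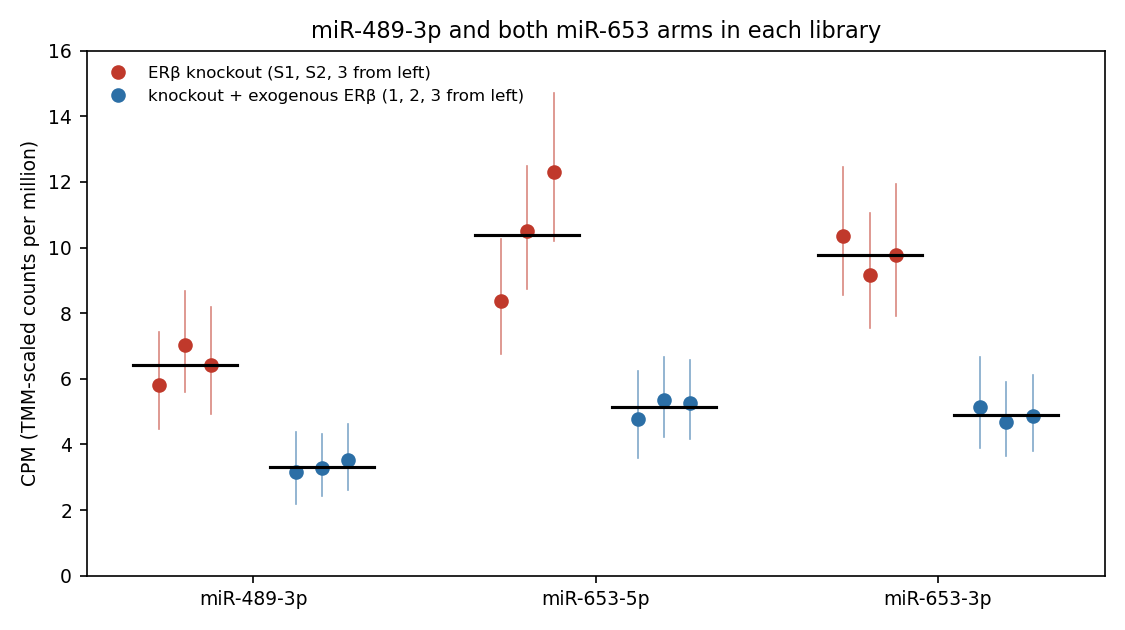
CPM of the 3 miRNAs in each library (points), with 95% Poisson intervals for counting error (thin lines) and group means (black bars), ERβ knockout in red and knockout with exogenous ERβ in blue. Every knockout point lies above every ERβ point of the same miRNA, with miR-489-3p lowest of the 3 in both groups.

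Together the 3 miRNAs summed to 24.5, 26.7 and 28.5 CPM in knockout libraries S1, S2 and 3, against 13.1, 13.3 and 13.7 CPM in ERβ libraries 1, 2 and 3. The means were 26.6 ± 1.97 CPM in knockout cells and 13.3 ± 0.298 CPM in cells with ERβ (SD, n = 3 each). In summed counts miR-489-3p had 212 in knockout cells and 136 in cells with ERβ, a ratio of 1.93 after scaling, with a 95% interval of 1.55 to 2.42. For miR-653-5p (340 and 211 counts) the ratio was 2.00 with an interval of 1.68 to 2.38, and for miR-653-3p (321 and 199 counts) it was 2.00 with an interval of 1.67 to 2.40. These exact binomial intervals cover counting error only, and reads without collapsed molecular identifiers are not independent molecules.

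The coefficient of variation between knockout libraries was 9.40% for miR-489-3p and 6.09% for miR-653-3p, below the 11.9% and 9.67% that counting alone gives at their mean counts. For miR-653-5p it was 19.0%, above the 9.39% from counting. Between ERβ libraries the 3 values were 4.69 to 6.06%, all below those from counting (11.9 to 14.9%).

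In the fit across all miRNAs (quasi-likelihood test of edgeR, p adjusted by Benjamini-Hochberg, under 0.05) 3 of 3 members were called higher in knockout cells, as were 13.3% of tested miRNAs, and 3 of 3 did not overlap between groups in that direction, as did 20.9%. Over both directions 23.1% were called and 39.8% did not overlap; 9.83% were called lower and 18.9% lay lower without overlap. The members were chosen with this contrast known, so nothing is read from these counts. By log2 fold change they ranked 28, 31 and 37 from the top of the 783, and by mean CPM 422, 430 and 494, in the order miR-653-5p, miR-653-3p and miR-489-3p. By level they thus stood near the middle of the tested miRNAs. Fitted without knockout library S2, which stood apart from its group over all tested miRNAs (chi-square per degree of freedom of 308 and 334 against the other knockout libraries, and 12.2 to 21.2 for the other pairs within groups), the log2 fold changes were 0.87 for miR-489-3p, 0.99 for miR-653-5p and 1.04 for miR-653-3p.

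**Figure D3:**
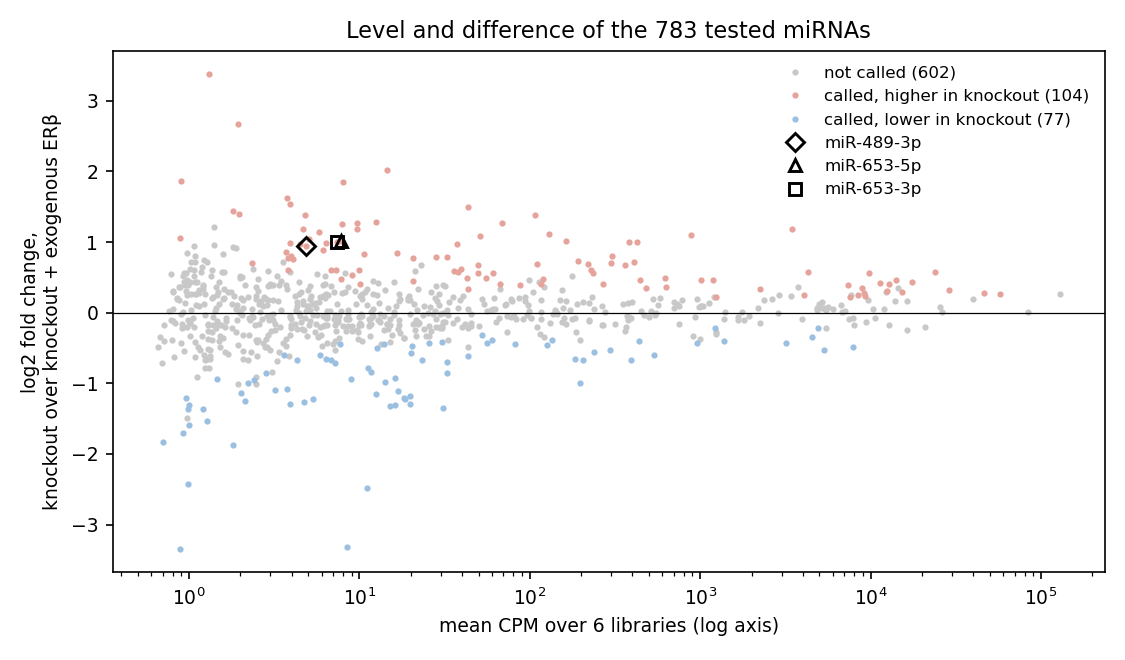
Mean CPM over 6 libraries (horizontal, log axis) against the log2 fold change of knockout over knockout with exogenous ERβ (vertical) for the 783 tested miRNAs, coloured by call. The 3 members (open black symbols) sit at 4.87 to 7.76 CPM and close to a log2 fold change of 1, within the upper part of the cloud at that level.

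The mix of arms differed between the groups by less than counting error. miR-653-5p made up 51.4% of the counts of both miR-653 arms in knockout cells (340 of 661, 95% Clopper-Pearson interval 47.6 to 55.3%), and 51.5% in cells with ERβ (211 of 410, interval 46.5 to 56.4%). By library it ranged from 44.7 to 55.8% in knockout cells and from 48.2 to 53.3% in cells with ERβ, with overlapping intervals. Both strands of the MIR653 stem therefore accumulated to nearly equal counts. The MIR489 hairpin was one-sided: miR-489-5p, its other arm and no member, had 0 counts in every knockout library and in ERβ libraries 1 and 2, and 1 count in ERβ library 3. A count of 0 allows up to 3 counts, or 0.201 to 0.305 CPM per library.

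The 2 hairpins also kept their proportion. miR-489 arms were 24.3% of all 4 arms in knockout cells (212 of 873, interval 21.5 to 27.3%), and 25.0% in cells with ERβ (137 of 547, interval 21.5 to 28.9%). Single libraries ran from 22.5 to 26.3% in knockout cells and from 24.1 to 26.1% in cells with ERβ. Library preparation captures each sequence with its own efficiency, so these shares compare libraries and not true molar amounts.

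**Figure D4:**
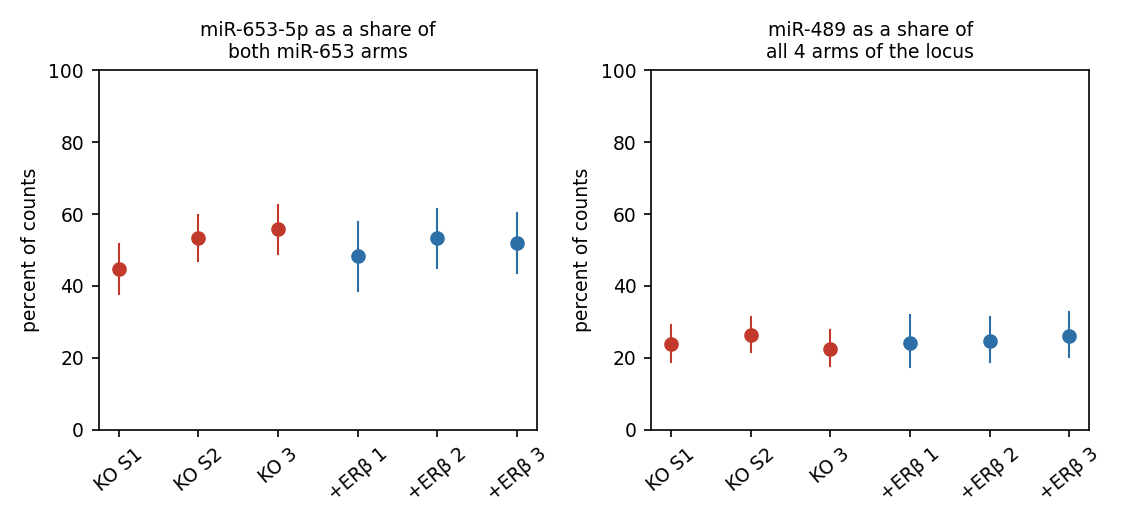
Percent of counts by library with 95% Clopper-Pearson intervals, ERβ knockout (KO) in red and knockout with exogenous ERβ (+ERβ) in blue; left, miR-653-5p among both miR-653 arms, right, miR-489 among all 4 arms. The intervals of all libraries overlap in each panel, near 50% on the left and near 25% on the right.

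The largest gap between the log2 fold changes of any 2 members was 0.06. The members were chosen with these fold changes known, so the following ranks describe them and support nothing. Among 35 groups of neighbouring hairpins (same strand, up to 10 kb apart, at least 2 hairpins and 3 tested arms with a single genomic origin) only 1 had a smaller range, and the median range was 0.34. Since the range grows with the number of arms, the 14 groups with exactly 3 tested arms are the closer comparison: their ranges ran from 0.02 to 0.68 with a median of 0.22. In 2 of these 14 all 3 arms were called in the same direction, this one and the miR-216a group, which was lower in knockout cells. Across the 6 libraries log2 CPM of the members had Pearson correlations of 0.91 to 0.97, which the difference between groups largely sets. With group means removed the correlations were 0.60 between miR-489-3p and miR-653-5p, -0.81 between miR-489-3p and miR-653-3p, and -0.61 between miR-653-5p and miR-653-3p. Since most of the spread within groups was below that from counting, these correlations cannot show whether the members shared an ordering of libraries.

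The miRNAs with the most similar profile over the 6 libraries, among 390 averaging at least 10 CPM, were miR-1299 (Pearson r = 0.997 with the mean standardised profile of the members), miR-105-5p (0.994), miR-10a-3p (0.993), miR-497-5p (0.992) and miR-320c (0.990). Of the 390, 55 had a correlation over 0.9, so this likeness is common in a comparison of groups of 3. miR-1299 averaged 274.9 ± 4.97 CPM in knockout cells and 180.7 ± 4.28 CPM in cells with ERβ, a log2 difference of 0.61 ± 0.08 (SE). miR-10a-3p, from a hairpin in the HOXB gene cluster, averaged 217.9 ± 3.20 CPM in knockout cells and 108.0 ± 4.33 CPM in cells with ERβ (1.01 ± 0.08). miR-105-5p from GABRA3 stood at 1.27 ± 0.10 and miR-320c, one of a set of near-identical miRNAs that can share reads, at 0.67 ± 0.09.

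Within 10 Mb of MIR489 on chromosome 7 the GENCODE annotation holds hairpins of 26 other listed mature miRNAs, 12 of which were tested. None was higher in knockout cells and 1 was lower (edgeR quasi-likelihood test), against 13.3% higher and 9.83% lower over all tested miRNAs. An unadjusted p under 0.05 was reached by 5 of the 12, against 269 of all 783, so these counts are not set apart from the background. Of the 12, 10 had a fold change below 0, but arms of the same hairpin or cluster are not separate observations. Their median log2 fold change was -0.21, against 0.01 over all tested miRNAs. The nearest, the arms of MIR4652 at 0.233 Mb, were too low to test.

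The tested neighbours included the 6 arms of miR-106b, miR-93 and miR-25 in an intron of MCM7, a cluster that promotes cell cycle progression, and none of these passed (-0.39 to 0.03). The neighbours with the largest differences were low. miR-548o-3p averaged 0.956 ± 0.226 CPM in knockout cells and 1.65 ± 0.373 CPM in cells with ERβ (-0.78 ± 0.30, not passed). miR-1285-3p averaged 2.87 ± 0.297 CPM in knockout cells and 4.34 ± 0.319 CPM in cells with ERβ (-0.60 ± 0.18; edgeR adjusted p = 0.0392), and lost its call in 9 of 13 alternatives, among them each library left out; it and miR-548o each have a second hairpin elsewhere. miR-4653-3p, at -0.49 ± 0.56, did not pass. Without knockout library S2, 4 neighbours were lower, all from the MCM7 cluster (miR-106b-3p, miR-106b-5p, miR-25-3p and miR-93-5p). With library totals or upper-quartile factors the count was also 4, and by DESeq2 it was 0.

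The assay does not cover CALCR messenger RNA. The promoter window of the longest CALCR transcripts (RefSeq, 250 bases before to 50 after the start, chr7:93574675-93574974, minus strand) is shown because all 3 members could be read from there, 90.7 kb upstream of MIR489, with GC boxes in capitals:
CALCR: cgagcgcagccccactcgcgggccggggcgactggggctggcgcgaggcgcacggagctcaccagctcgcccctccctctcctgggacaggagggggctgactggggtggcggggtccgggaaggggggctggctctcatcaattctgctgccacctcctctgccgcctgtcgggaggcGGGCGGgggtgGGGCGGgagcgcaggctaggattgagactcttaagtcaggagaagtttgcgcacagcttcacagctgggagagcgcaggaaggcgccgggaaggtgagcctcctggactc
It held 2 copies of the GC box GGGCGG, read on both strands, a motif found in 45.0% of all 35116 promoter windows. It held no estrogen response half-site AGGTCA (13.8% of windows), no full estrogen response element (that half-site, any 3 bases and its reverse complement; 0.00285% of windows) and no AP-1 site TGANTCA (7.71% of windows), on either strand. The second CALCR window in RefSeq, chr7:93559761-93560060, held none of the 4. GENCODE also lists CALCR transcripts that start much closer to MIR489, whose start windows were not searched. These matches describe letters in these windows and say nothing of where any factor binds.

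The seed matches of the members in the longest 3′ UTR of each protein-coding gene (GENCODE release 29) were searched for genes tied to miR-489 or to the receptors. The complement of the miR-489-3p seed, GATGTCA, occurred 2 times in PTPN11, and in 10.2% of 19002 genes. It was absent from the UTRs of ERBB2, DEK, ESR1 and ESR2. The UTRs differed in length (ERBB2 621, DEK 1854, ESR2 4042, PTPN11 4124 and ESR1 4311 bases). A longer UTR has more room for a match, and the shares over all genes are not matched for length. The PTPN11 matches are printed with flanking bases, the match in capitals:
PTPN11 site 1: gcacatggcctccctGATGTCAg
PTPN11 site 2: aggaatacgttttagGATGTCAt
The miR-653-5p match TTCAACA was in none of the 5 UTRs and in 12.5% of all genes. The miR-653-3p match CCAGTGA occurred once, in ESR2, and in 13.8% of all genes:
ESR2 site: gcaactcattatctgCCAGTGAa
Whether the exogenous ERβ carries this UTR is not stated, and no target was measured here.

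Of 10 miRNAs known to act on ERBB receptors, a list that holds other repressors of the receptor family beside miR-489, all were tested. In knockout cells 3 were higher and 1 lower (edgeR quasi-likelihood test, adjusted p under 0.05), against 13.3% higher and 9.83% lower over all tested miRNAs. The median log2 fold change was 0.18, against 0.01 over all. The list was chosen with earlier results of these data known, so its counts and p-values are no independent evidence. miR-199b-5p averaged 387.8 ± 41.9 CPM in knockout cells and 222.9 ± 10.3 CPM in cells with ERβ (0.80 ± 0.10; edgeR adjusted p = 4.34e-04). miR-143-3p averaged 8.0 ± 0.646 CPM in knockout cells and 3.60 ± 0.121 CPM in cells with ERβ (1.15 ± 0.15). miR-22-3p, which also represses ESR1, rose by less (0.46 ± 0.07), and miR-205-5p, a repressor of ERBB3, fell (-0.52 ± 0.08). miR-125a-5p and miR-125b-5p, the best known repressors of ERBB2 and ERBB3, did not pass (0.29 ± 0.13 and 0.25 ± 0.11), though miR-125b-5p was called higher without knockout library S2, which made 4 higher. In the other direction miR-7-5p did not pass (-0.25 ± 0.08), but it was called lower in 5 of 13 alternatives. The count of lower members was 3 with library totals, and 2 with upper-quartile factors, with no filter, by limma-voom and without knockout library S2.

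The list of miRNAs known from muscle stem cells and muscle differentiation had 9 members, of which 5 were tested. In knockout cells 4 were higher and none lower (edgeR quasi-likelihood test), against 13.3% higher and 9.83% lower over all tested miRNAs. The median log2 fold change was 1.00, against 0.01 over all. miR-195-5p, which with miR-497-5p restrains cell cycle genes in quiescent muscle stem cells of the mouse, averaged 509.7 ± 16.9 CPM in knockout cells and 254.1 ± 5.61 CPM in cells with ERβ (1.00 ± 0.07; edgeR adjusted p = 3.74e-05). miR-497-5p stood at 0.72 ± 0.07. miR-708-5p averaged 23.4 ± 4.67 CPM in knockout cells and 5.76 ± 0.593 CPM in cells with ERβ (2.02 ± 0.18).

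miR-1-3p, a miRNA of differentiated muscle, averaged 3.35 ± 0.528 CPM in knockout cells and 0.515 ± 0.233 CPM in cells with ERβ (2.67 ± 0.33). The ERβ values rested on 6, 11 and 4 counts. It was abundant enough to enter the fit only in the knockout libraries. Its call and its part in the list's count and median are therefore no evidence. miR-31-5p did not pass (-0.22 ± 0.08), but was lower without knockout library S2, with upper-quartile factors, with library totals and with no filter. The differences of several of these miRNAs were known when this list was chosen, so its count is no independent evidence.

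**Figure D5:**
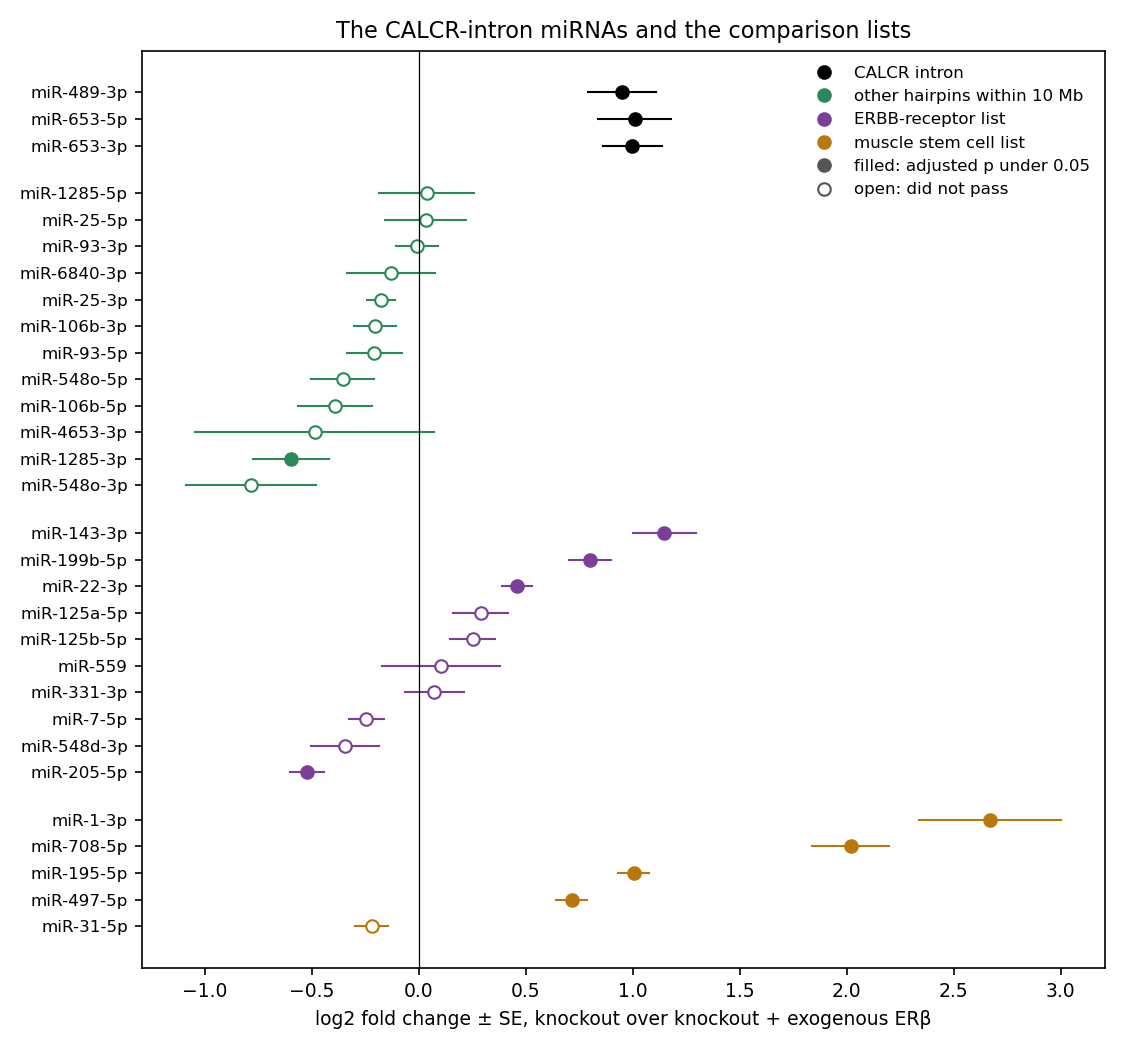
Log2 fold change ± SE of knockout over knockout with exogenous ERβ for the 3 members (black), the tested hairpin neighbours within 10 Mb (green), the ERBB-receptor list (purple) and the muscle stem cell list (orange); filled points had an adjusted p under 0.05. The members lie at 0.95 to 1.01, while 10 of 12 neighbours lie below 0. Of these 12, 6 are arms of the MCM7 cluster and are not separate observations.

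Total counts ran from 10618999 to 12228519 in knockout libraries and from 10288413 to 14296900 in ERβ libraries. Epithelial markers were abundant in every library, with miR-200 family members, miR-205-5p and miR-203a-3p summing to 94362 to 110373 CPM in knockout cells and 93106 to 97879 CPM in cells with ERβ. Of these 7 markers 3 were higher in knockout cells (miR-200c-3p, miR-141-3p and miR-203a-3p) and miR-205-5p was lower. Over all tested miRNAs 13.3% were called higher and 9.83% lower, the shares to set beside this and the following marker counts. Markers of muscle, where miR-489 is best studied, summed to 11 to 12.8 CPM over the knockout libraries and 4.80 to 5.32 CPM over the ERβ libraries. Of the 6 muscle markers 2 were tested, miR-1-3p and miR-499a-5p (0.98 ± 0.14), and both were higher in knockout cells. miR-1-3p entered the fit through the knockout libraries alone, so its call carries no weight here. miR-133b had 0 counts in all 6 libraries after rounding (0.33 before rounding in knockout library 3). miR-206, miR-208a-3p and miR-133a-3p were below 1 CPM in each library. Of the luminal breast markers 2 of 3 were higher in knockout cells, with sums of 1221 to 1351 CPM in knockout libraries and 947.2 to 1013 CPM in ERβ libraries. Of 5 stromal and endothelial markers 3 were tested and 2 were higher, miR-143-3p and miR-126-3p. The sums were 16551 to 16970 CPM in knockout libraries and 13085 to 14243 CPM in ERβ libraries, nearly all of it miR-126-3p. miR-143-3p averaged 8.0 CPM in knockout cells and 3.60 CPM in cells with ERβ. miR-199a-5p, at 3.41 and 2.56 CPM, did not pass, and miR-145-5p and miR-214-3p were below 1 CPM in each library. Of 6 blood markers 3 were tested and none passed. Of 3 neural markers 2 were tested and miR-129-5p was higher, at 23.7 CPM in knockout cells and 17.4 CPM in cells with ERβ. The sums were 4488 to 5643 CPM in knockout libraries and 4658 to 4762 CPM in ERβ libraries. Nearly all of it was miR-128-3p, which did not pass (0.06 ± 0.09). The liver marker miR-122-5p did not pass. The part of these markers in the difference of miR-489 and miR-653 was not tested.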

How the data were processed

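Small RNA of 6 KPL4 samples was prepared with a QIAseq miRNA kit, per the labels' protocols; FastQC, Trim Galore and GRCh38 are named in the submitters' processing notes. Aligner, counting tool, annotation release and any use of molecular identifiers are not given in these sources. The authors deposited 1 table of expected counts for mature miRNAs. Of the knockout columns 2 carry the number 1 and are known by group only.

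Counts were rounded and fitted in edgeR 4.0.16 (R 4.3.3): filterByExpr defaults (minimum count 10, minimum total 15), TMM, robust quasi-likelihood test, all 6 libraries fitted together, and p-values adjusted by Benjamini-Hochberg across the 783 miRNAs that passed (called under 0.05). Total counts per library were 10288413 to 14296900, and a count of 0 allows up to 3 counts. Standard errors were derived from the F statistic. Of the 783, 181 were called and 269 had an unadjusted p under 0.05. The test was tried on simulated counts. Similarity of profiles used log2(CPM + 0.5). Hairpins were matched by name to GENCODE release 29 (753 of the tested miRNAs). Folding used ViennaRNA 2.7.2 and figures matplotlib 3.10.9. Alternatives were DESeq2 1.42.0 size factors and test, upper-quartile factors, library totals, no filter, limma-voom (limma 3.58.1), a replicate block and each library left out.

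The members and lists were chosen with earlier results of these data known. Named beside the members were the other arms of their hairpins, the 3 largest differences among neighbours, the list members with the smallest adjusted p, and the 5 most similar profiles; other names were chosen after their values were seen.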

Additional observations from a re-analysis of the deposited data

How the results depend on the processing

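The members were chosen with this contrast known, so their values under other settings describe the same libraries and are no independent support. Their log2 fold changes with a library left out ran from 0.87 to 1.02 for miR-489-3p, 0.87 to 1.14 for miR-653-5p and 0.93 to 1.04 for miR-653-3p. Upper-quartile factors and library totals lowered the median of all tested miRNAs by 0.11 and 0.15; with library totals miR-489-3p was at 0.80 and miR-653-3p at 0.84, and with upper-quartile factors miR-653-3p at 0.89, but above each fit's own median miR-489-3p stayed at 0.94, miR-653-5p at 0.99 to 1.00 and miR-653-3p at 0.98 to 0.99. Over all miRNAs 104 were called higher and 77 lower in knockout cells. Library totals gave 61 higher and 146 lower, and upper-quartile factors 123 lower. The replicate block, by the numbers in the column names, gave 88 calls, 50 higher and 38 lower. The numbers mark no stated pairing: deviations of libraries with the same number correlated at -0.10, 0.13 and 0.12, and 2 knockout libraries share 1 number. With a library left out the calls ran from 111 to 279 (58 to 157 higher, 49 to 122 lower). With 35 to 127 counts per library, differences between the members' fold changes are within their errors.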
